A study of Homo sapiens with 12 samples.

Results

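The genes described here are 10 that define or guard epithelial identity, chosen by name out of 28747 gene identifiers in the count table: the adhesion molecules CDH1 (E-cadherin) and EPCAM, the Grainyhead-like factors GRHL1 and GRHL2, the OVO-like zinc finger factors OVOL1 and OVOL2, the splicing regulators ESRP1 and ESRP2, and the ETS factors ELF3 and EHF. They were read in 12 RNA-seq libraries of DU145, an established human prostate cancer line that grows without androgen. All cells carried a stably integrated lentiviral hairpin and had been selected with puromycin: shSigma is the knockdown hairpin and shCtrl the control hairpin. Each line was profiled in adherent culture (RPMI medium with serum) and as tumor spheres (serum-free medium with growth factors on a non-adhesive coating, which enriches stem-like cells), with 3 libraries in each of the 4 groups. Medium and attachment change together between the cultures and cannot be told apart, and which hairpin sequence the sequenced line carried is not given in the sources used here. The labels tell no further hairpin or line apart, so the knockdown cannot be told apart from another difference between the shSigma and shCtrl lines. The p-values below do not cover a spread between such lines, and knockdown below means shSigma against shCtrl.

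E-cadherin joins neighbouring epithelial cells through adherens junctions, and its loss is a hallmark of the epithelial-mesenchymal transition, in which carcinoma cells gain motility. GRHL, OVOL and ESRP proteins sustain the epithelial state: GRHL2 activates junction genes, OVOL proteins repress mesenchymal genes, and ESRP proteins direct epithelial splice forms. Opposed to them stand zinc finger repressors of the ZEB and SNAI families, which bind E-boxes in epithelial promoters and silence them.

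The libraries held 23668070 to 26957777 counts in adherent shCtrl, 19542016 to 22006759 in adherent shSigma, 16472722 to 19164645 in sphere shCtrl and 18626387 to 19698970 in sphere shSigma cells. The 5 markers of an epithelial line, CDH1 and EPCAM among them, summed to 878 to 2350 CPM, the count per 1000000 counts of the TMM-scaled library. The sum was 878 to 964 CPM in adherent shCtrl and 1140 to 1450 CPM in adherent shSigma libraries. It was 2280 to 2350 CPM in sphere shCtrl and 897 to 954 CPM in sphere shSigma libraries. In adherent cells CDH1 and EPCAM were lower in shSigma, while the other markers, all keratins, were 1.5-fold to 3.75-fold higher. KLK2 and KLK3, which androgen induces in luminal prostate cells, had at most 2 counts in any library, and 7 fibroblast, 5 immune and 4 endothelial markers summed to at most 26.8, 1.21 and 2.87 CPM. The fibroblast sum was 20.9 to 26.8 CPM in sphere shCtrl and 3.67 to 14.9 CPM in the other groups, and its part in the results below was not tested. In sphere shCtrl a single collagen gene held a mean of 22.7 CPM of that sum, and the markers other than collagens had means of at most 0.198 CPM. Adherent libraries varied along a shared axis across genes: the correlation of an shSigma with an shCtrl library, in their deviations from the group means, ran from -0.917 to 0.889. The members whose calls depend on 1 of these libraries are named below. In bulk RNA, fewer epithelial cells and less of these RNAs per cell cannot be told apart.

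Of the 10 members, 9 could be tested for the knockdown in spheres and all 9 were lower in shSigma cells, where 30.9% of all 13774 genes tested were called lower and 30.2% higher. In adherent cells 8 were tested: 5 were lower and 1, ELF3, was higher, against 27.7% of 13764 genes called lower and 22.3% called higher, while GRHL1 and ESRP2 were not called. GRHL2 and OVOL2 in both cultures, and OVOL1 in spheres, passed the count filter through the shCtrl libraries alone. Their direction is therefore no support of its own. EHF, which was not tested, had 8, 8 and 1 counts in shSigma spheres against 0, 1 and 0 in shCtrl spheres. The median log2 fold change of the tested members was -3.65 in spheres and -1.66 in adherent cells, beside medians of 0.00 and -0.01 over all genes tested. A call is an adjusted p under 0.05 in edgeR's quasi-likelihood test. In control cells the culture itself moved these genes: 8 of 9 were higher in spheres than in adherent cells, none was lower and ESRP2 was not called, with 27.4% of 13800 genes called higher and 26.3% lower. OVOL1 passed the filter there through the sphere libraries alone. In shSigma cells only 6 members had enough counts for this test, of which CDH1, EPCAM and ELF3 were higher in spheres and GRHL1 was lower, against 21.9% and 25.2% of 13622 genes. Each culture contrast shares libraries with both knockdown contrasts, so the culture and knockdown results are not independent of each other. The knockdown contrasts in spheres and in adherent cells share no library, but both compare the shSigma with the shCtrl line. Another difference between these lines would enter both.

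**Figure D1:**
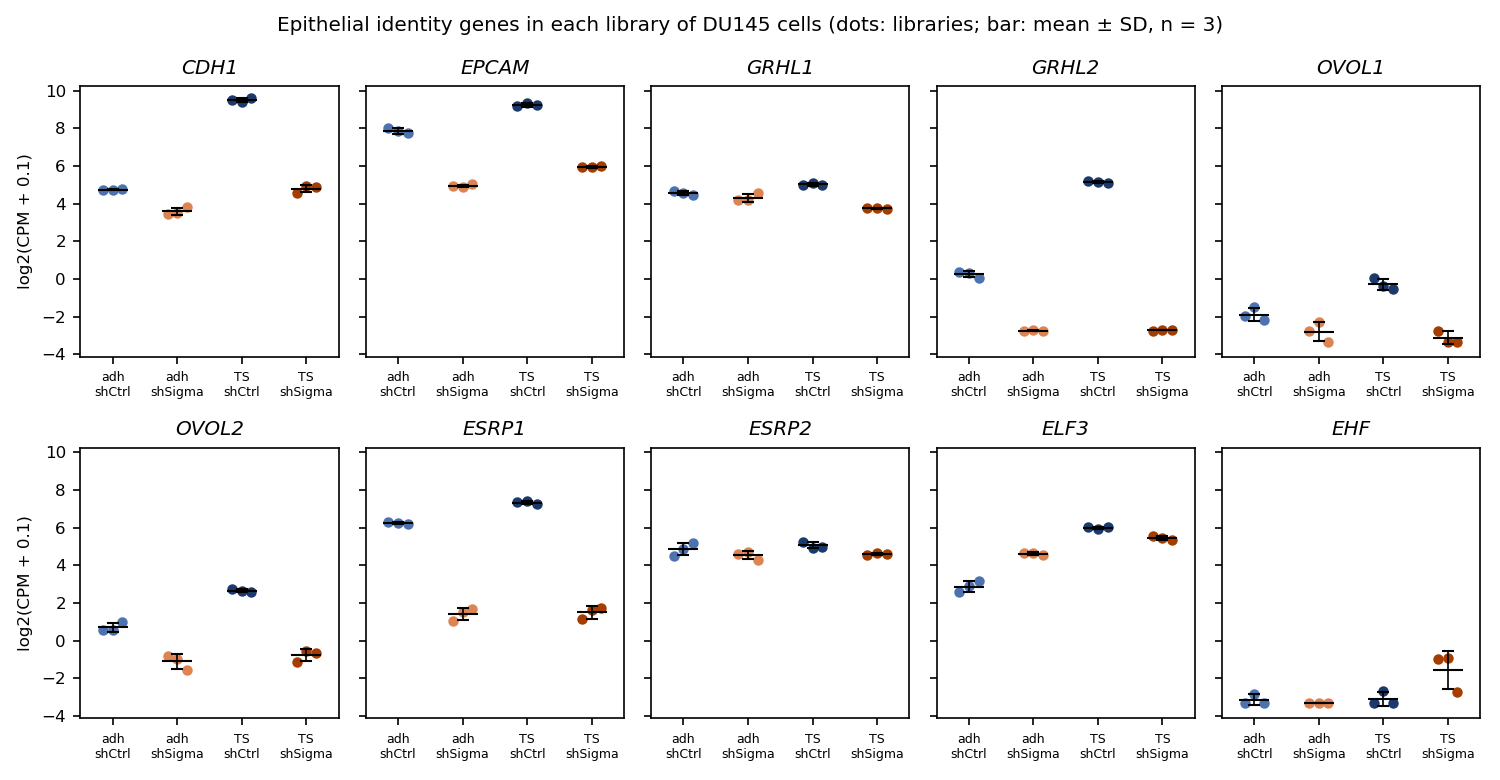
Level of each member in each of the 12 libraries, as log2 of CPM plus 0.1, in adherent (adh) and tumor sphere (TS) cultures. Dots are libraries and bars the mean ± SD of 3. The sphere shCtrl libraries are the highest for every member except EHF and, with overlapping libraries, ESRP2.

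CDH1, the gene of E-cadherin, was high in control spheres alone, and its level depended on both hairpin and culture. Adherent shCtrl libraries held 26.8, 26.8 and 26.9 CPM (26.8 ± 0.0902, mean ± SD, n = 3) and adherent shSigma libraries 10.7, 11.4 and 13.9 CPM. Sphere shCtrl libraries held 732, 678 and 770 CPM, and sphere shSigma libraries 23.9, 30.1 and 29.3 CPM. The control spheres thus stood far above the other 9 libraries, and the range of the shSigma spheres enclosed that of the adherent control cells. Knockdown lowered CDH1 by 2.34-fold in adherent cells (log2 fold change -1.23 ± 0.10 SE, adjusted p = 7.86e-05) and by 26.2-fold in spheres (-4.71 ± 0.10, adjusted p = 3.46e-11). Sphere culture raised it 27-fold in shCtrl cells (4.76 ± 0.08, adjusted p = 3.7e-08) and 2.35-fold in shSigma cells (1.23 ± 0.12, adjusted p = 0.000186). The knockdown effect in spheres minus that in adherent cells, an interaction term fitted over all 12 libraries, was -3.55 on the log2 scale (SE 0.15, adjusted p = 1.73e-09).

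EPCAM, which encodes the epithelial cell adhesion molecule, fell strongly with the knockdown in both cultures. Its 3 adherent shCtrl libraries held 264, 228 and 213 CPM, and the adherent shSigma libraries 30.8, 29.7 and 32.4 CPM. In spheres it stood at 578, 663 and 599 CPM under shCtrl and at 60.7, 61.4 and 63.6 CPM under shSigma. No group overlapped another, and the order was control spheres, adherent control cells, shSigma spheres and adherent shSigma cells. Knockdown lowered EPCAM 7.95-fold in adherent cells (log2 -2.99 ± 0.10, adjusted p = 3.48e-06) and 9.93-fold in spheres (-3.31 ± 0.06, adjusted p = 1.02e-11). Sphere culture raised it 2.61-fold in shCtrl cells (adjusted p = 1.51e-05) and 2.03-fold in shSigma cells (adjusted p = 9.78e-06). The interaction was small, -0.38 ± 0.11 (adjusted p = 0.0232), and its call was lost in 10 of the 12 fits that left out 1 library (all but those without shCtrl replicate 1 of either culture), with adjusted p up to 0.134, and with DESeq2 (adjusted p = 0.07).

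**Figure D2:**
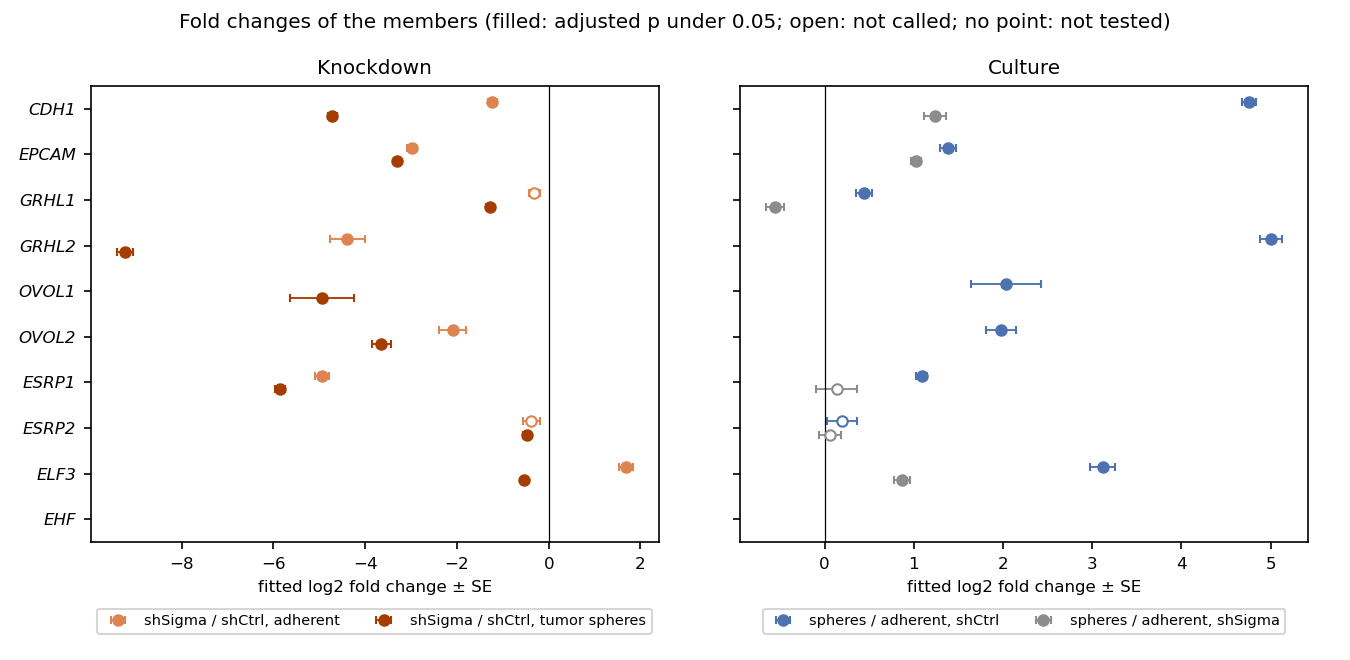
Fitted log2 fold change with its SE for each member, for the knockdown (left) and for sphere against adherent culture (right). Filled points passed the test, open points did not, and members without a point had too few counts to be tested. CDH1 and GRHL2 show the widest gaps between the adherent and the sphere effect of the knockdown, and ELF3 lies on opposite sides of 0.

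Among the Grainyhead-like factors, GRHL2, an activator of CDH1 and other junction genes, was almost absent from shSigma cells. Each of the 6 shSigma libraries held exactly 1 count of GRHL2. Adherent shCtrl libraries held 31, 27 and 24 counts (1.19, 1.14 and 0.947 CPM), and sphere shCtrl libraries held 621, 652 and 670 counts (36.4, 36.0 and 33.8 CPM). Control cells therefore stood above shSigma cells without overlap in both cultures, and the shSigma libraries of the 2 cultures overlapped. From the summed counts the ratio of shCtrl to shSigma was 22.3 in adherent cells (95% counting interval 7.37 to 110) and 678 in spheres (232 to 3290). Both differences were called (adjusted p = 9.42e-05 and 1.29e-11). The rise from adherent to sphere culture in shCtrl cells was 32.2-fold (log2 5.01 ± 0.12, adjusted p = 1.08e-07). The interaction was called as well (-4.93 ± 0.73, adjusted p = 0.0033), although its size rests on 3 counts in each shSigma group.

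GRHL1, the paralogue of GRHL2, stood at 25.8, 23.5 and 21.9 CPM in adherent shCtrl and 18.2, 18.2 and 23.4 CPM in adherent shSigma libraries, which overlapped. Sphere shCtrl libraries held 31.6, 33.8 and 31.7 CPM and sphere shSigma libraries 13.6, 13.5 and 13.0 CPM, without overlap. The knockdown effect was not called in adherent cells (log2 -0.32 ± 0.12, adjusted p = 0.0596) but was called without shSigma replicate 3 (-0.42, adjusted p = 0.0213) or without shCtrl replicate 3 (-0.39, adjusted p = 0.0352). In spheres GRHL1 fell 2.43-fold (-1.28 ± 0.08, adjusted p = 7.32e-08), and the interaction was -1.03 ± 0.15 (adjusted p = 0.000159). Sphere culture raised GRHL1 in shCtrl cells (0.45 ± 0.09, adjusted p = 0.00378) and lowered it in shSigma cells (-0.55 ± 0.10, adjusted p = 0.00362). Per kilobase of exon, the level of GRHL2 over that of GRHL1 was 1.40 to 1.51 in control spheres, 0.0569 to 0.0638 in adherent control cells and at most 0.00536 in any shSigma library.

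OVOL2, a repressor of mesenchymal genes, followed the same order of group means as GRHL2. Per kilobase of exon it was below GRHL2 in control spheres (2.80 against 5.84 CPM per kilobase). It was above GRHL2 in the other groups, at 0.707 against 0.181 CPM per kilobase in adherent shCtrl cells. Its counts were 36, 33 and 48 in adherent shCtrl and 10, 8 and 5 in adherent shSigma libraries. In spheres they were 113, 109 and 116 under shCtrl (6.62, 6.02 and 5.85 CPM) and 7, 11 and 10 under shSigma (0.353, 0.583 and 0.53 CPM). The hairpin groups did not overlap in either culture, whereas the 2 shSigma groups overlapped each other. Knockdown lowered OVOL2 4.27-fold in adherent cells (log2 -2.10 ± 0.30, adjusted p = 0.000953) and 12.5-fold in spheres (-3.65 ± 0.21, adjusted p = 4.06e-08), and sphere culture raised it 3.94-fold in shCtrl cells (adjusted p = 4.84e-05). The interaction was -1.61 ± 0.40 (adjusted p = 0.00853), and without adherent shSigma replicate 1 it was -1.37 and narrowly missed the threshold (adjusted p = 0.0505). OVOL2 shares exonic bases with SNX5 on the same strand, so part of its reads may be counted to either gene.

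OVOL1, its paralogue, was near the detection limit. Adherent shCtrl libraries held 4, 6 and 3 counts and adherent shSigma libraries 1, 2 and 0, which was too few for the test (ratio 3.54, 95% counting interval 0.972 to 19.4). In spheres the shCtrl libraries held 16, 12 and 12 counts, and the shSigma libraries 1, 0 and 0. This sphere difference was called (log2 -4.94, adjusted p = 8.12e-05, and -6.77 without shSigma replicate 1, which held the 1 count), with a ratio of summed counts of 41.9 (95% counting interval 7.09 to 1690). Control cells had more OVOL1 in spheres than in adherent culture (log2 2.03 ± 0.39, adjusted p = 0.00311), and the interaction was not called (-3.27 ± 1.48, adjusted p = 0.12).

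The epithelial splicing regulators responded differently: ESRP1 fell steeply with the knockdown in both cultures, while ESRP2 fell 1.39-fold in spheres and was not called in adherent cells. ESRP1 stood at 79.3, 74.5 and 72.4 CPM in adherent shCtrl and at 1.95, 2.71 and 3.04 CPM in adherent shSigma libraries. Sphere shCtrl libraries held 161, 168 and 152 CPM, and sphere shSigma libraries 2.07, 3.02 and 3.23 CPM. Every control library lay above every shSigma library, and the ranges of the 2 shSigma groups overlapped. Knockdown lowered ESRP1 30.7-fold in adherent cells (log2 -4.94 ± 0.15, adjusted p = 1.97e-06) and 58-fold in spheres (-5.86 ± 0.11, adjusted p = 8.36e-12). Its interaction was -0.98 ± 0.21 (adjusted p = 0.00301). The rise with sphere culture was 2.12-fold in shCtrl cells (adjusted p = 7.86e-06) and was not called in shSigma cells (0.13 ± 0.23, adjusted p = 0.653).

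ESRP2 held 22.7, 28.8 and 35.7 CPM in adherent shCtrl, 24.3, 26.0 and 19.4 CPM in adherent shSigma, 37.7, 30.4 and 31.7 CPM in sphere shCtrl and 22.8, 25.0 and 23.9 CPM in sphere shSigma libraries. Adherent groups overlapped and sphere groups did not. The change was called in spheres (log2 -0.48 ± 0.09, adjusted p = 0.000814) and not in adherent cells (-0.38 ± 0.19, adjusted p = 0.138), although it was called there without shCtrl replicate 1 (-0.48, adjusted p = 0.0304). The difference between those effects was not called (-0.15 ± 0.22, adjusted p = 0.658), nor was either culture contrast (0.19 ± 0.17, adjusted p = 0.369 in shCtrl and 0.06 ± 0.13, adjusted p = 0.714 in shSigma cells). Per kilobase, the level of ESRP1 over that of ESRP2 was 2.15 to 3.71 in adherent and 4.56 to 5.87 in sphere control libraries, and 0.0856 to 0.166 and 0.0963 to 0.144 in the shSigma libraries. The more abundant ESRP transcript was therefore ESRP1 in all 6 control libraries and ESRP2 in all 6 shSigma libraries. ESRP2 overlaps exonic bases of NFATC3 on the opposite strand, and whether the counting used strand is not given in the sources used here.

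ELF3, an ETS factor of epithelial differentiation, was the member that went the other way in adherent cells. Adherent shCtrl libraries held 5.84, 7.28 and 8.72 CPM, and adherent shSigma libraries 25.1, 25.1 and 22.8 CPM. In spheres the order turned, with 64.2, 60.3 and 64.9 CPM under shCtrl and 47.1, 43.7 and 40.2 CPM under shSigma. No group overlapped another. Knockdown raised ELF3 3.21-fold in adherent cells (log2 1.68 ± 0.15, adjusted p = 0.000103) and lowered it 1.45-fold in spheres (-0.54 ± 0.07, adjusted p = 5.59e-05). The interaction was -2.27 ± 0.16 (adjusted p = 3.23e-07). Sphere culture raised it 8.67-fold in shCtrl cells (adjusted p = 2.02e-06) and 1.82-fold in shSigma cells (adjusted p = 0.000211).

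EHF, an ETS factor related to ELF3, was scarcely detected. It had 0, 1 and 0 counts in adherent shCtrl, 0, 0 and 0 in adherent shSigma, 0, 1 and 0 in sphere shCtrl and 8, 8 and 1 in sphere shSigma libraries. It passed the count filter in no comparison. With no filter it was called higher under shSigma in spheres (log2 3.60, adjusted p = 0.00361), as with DESeq2 (3.90, adjusted p = 0.0295), opposite to the other 9 members there. The ratio of shSigma to shCtrl in spheres was 16.2 (95% counting interval 2.55 to 679) and rests on replicates 1 and 2, since replicate 3 held 1 count. Adherent shSigma cells had no count, so the ratio of shSigma spheres to them has no value. The lower end of its 95% counting interval was 4.39 (6.03-fold against a floor of 3 counts over the group), again on replicates 1 and 2. These intervals cover counting error only and not the spread between libraries.

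Upstream sequence was at hand for 3 members, GRHL1, ELF3 and EHF, from RefSeq (GRCh38.p14). The E-box CAGGTG, which ZEB and SNAI proteins bind, was searched on both strands in the 250 bases before the start, together with the Grainyhead motif AACNGGTT and the OVOL motif CCGTTA. GRHL1 and ELF3 are shown because both rose in control spheres and fell with the knockdown there. The ELF3 window held 1 E-box, starting 120 bases before the start, shown in capitals in its 30 bases (chr1:202010455-202010484, plus strand), and its window overlaps exons of other ELF3 transcripts and of the antisense gene ELF3-AS1. Neither GRHL1 (chr2:9951443-9951692, plus strand) nor either EHF window held any of the motifs.
ELF3: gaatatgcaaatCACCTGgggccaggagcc
GRHL1: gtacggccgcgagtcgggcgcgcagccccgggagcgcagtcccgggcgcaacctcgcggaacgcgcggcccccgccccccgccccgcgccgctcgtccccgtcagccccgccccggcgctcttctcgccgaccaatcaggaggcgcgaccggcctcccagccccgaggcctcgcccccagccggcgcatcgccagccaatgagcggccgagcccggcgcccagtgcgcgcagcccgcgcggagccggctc
Of 35116 windows of this length, 17.5% held the E-box, 1.49% the Grainyhead motif and 2.45% the OVOL motif, and a match is a description of letters only.

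The difference of the knockdown between cultures was called lower, meaning a more negative effect in spheres, for 7 of 9 members (CDH1, EPCAM, GRHL1, GRHL2, OVOL2, ESRP1 and ELF3) and higher for none, against 15.6% and 12.7% of 14175 genes. The median over the 9 was -1.61, beside -0.03 for all genes tested. With at least 10 counts required in every library, 4 members were called, since GRHL2 and OVOL2 are then not tested and EPCAM misses the threshold (adjusted p = 0.0615).

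Compared per kilobase of exon, EPCAM was the most abundant member in every group, with mean levels of 96.7, 12.7, 252 and 25.5 CPM per kilobase in adherent shCtrl, adherent shSigma, sphere shCtrl and sphere shSigma cells. In control spheres CDH1 followed at 120, ESRP1 at 32.9, ELF3 at 8.79, ESRP2 at 6.41, GRHL2 at 5.84, GRHL1 at 4.07 and OVOL2 at 2.80 CPM per kilobase. In adherent shSigma cells the place after EPCAM went to ESRP2 at 4.48, followed by ELF3 at 3.39, GRHL1 at 2.51 and CDH1 at 1.98, and ESRP1 was at 0.527 CPM per kilobase. In shSigma spheres ELF3 came next to EPCAM at 6.07, ahead of ESRP2 at 4.61 and CDH1 at 4.57 CPM per kilobase.

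The members lie on 6 chromosomes of GRCh38 (positions from GENCODE). CDH1 (chromosome 16, 68737292 to 68835537, plus strand) lies 9.82 kilobases downstream of CDH3, the P-cadherin gene, and 499 kilobases from ESRP2 on the same chromosome. EPCAM is at 47345158 to 47387601 on the plus strand of chromosome 2, which also carries GRHL1 (9951693 to 10002277). ESRP1 and GRHL2 are 6.78 megabases apart on chromosome 8, OVOL1 and EHF lie on chromosome 11, OVOL2 on chromosome 20 and ELF3 on chromosome 1. The 40 tested genes nearest to CDH1 had a median knockdown effect of -0.05 in adherent cells and 0.02 in spheres, and those nearest to EPCAM 0.02 and -0.05. Around GRHL2 and ESRP1 the same medians were -0.54 and -0.55 in adherent cells and -0.50 and -0.53 in spheres. The median neighbour of each on chromosome 8 was thus lower in shSigma cells, and its part in the values of GRHL2 and ESRP1 was not tested.

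The ZEB repressors of E-cadherin were lowest in control spheres, where CDH1 was highest, and higher in shSigma than in control cells of either culture. ZEB1 stood at 22.8, 21.2 and 21.9 CPM in adherent shCtrl, 28.7, 28.0 and 37.0 CPM in adherent shSigma, 1.76, 1.33 and 2.07 CPM in sphere shCtrl and 27.9, 28.9 and 30.7 CPM in sphere shSigma libraries. The control spheres did not overlap any other group. ZEB2 gave means of 2.66 ± 0.361, 6.15 ± 0.549, 0.251 ± 0.0669 and 6.28 ± 0.419 CPM in that order of groups. Knockdown raised ZEB1 1.35-fold in adherent cells (adjusted p = 0.0111, lost with the replicate number as a block at adjusted p = 0.0522) and 16.8-fold in spheres (adjusted p = 5.45e-10), and ZEB2 2.2-fold (adjusted p = 0.00071) and 24-fold (adjusted p = 1.44e-08). In shSigma cells, where sphere culture raised CDH1, neither was called between the cultures (log2 -0.07, adjusted p = 0.571 for ZEB1 and 0.05, adjusted p = 0.709 for ZEB2). VIM, the gene of the mesenchymal filament protein vimentin, was 883 ± 46.4, 1100 ± 44.7, 170 ± 18.3 and 775 ± 31 CPM, a rise with the knockdown of 1.2-fold in adherent cells (adjusted p = 0.0207, lost without shCtrl replicate 2 at adjusted p = 0.0619 and with that block at adjusted p = 0.103) and 4.55-fold in spheres (adjusted p = 9.14e-10). Per kilobase, CDH1 over VIM was 3.41 to 4.11 in control spheres and at most 0.0338 in the other 9 libraries. ZEB1 and VIM were named after their values were seen.

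**Figure D3:**
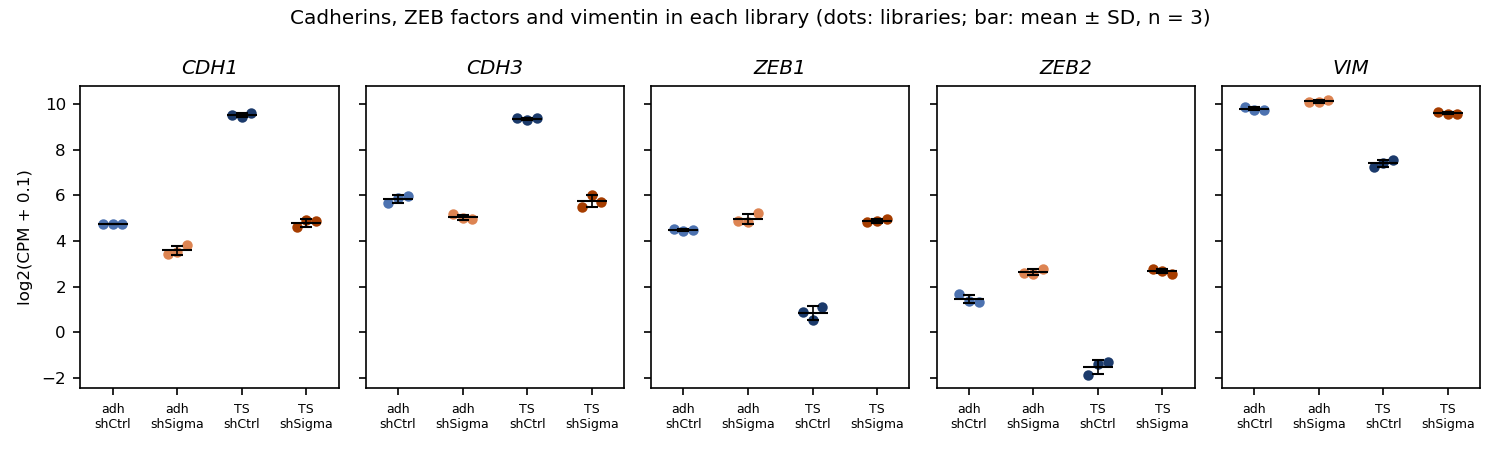
CDH1 and CDH3 beside ZEB1, ZEB2 and VIM in each library, as log2 of CPM plus 0.1, with the mean ± SD of 3 libraries. The control spheres are the highest group for the cadherins and the lowest for ZEB1, ZEB2 and VIM.

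Of 10 E-cadherin repressors and EMT factors, 7 were tested in adherent cells and 6 in spheres, and in each culture 3 were higher and 1 lower, where 22.3% and 27.7% of all genes tested were called higher and lower in adherent cells and 30.2% and 30.9% in spheres. With the replicate block 1 was higher in adherent cells, and with at least 10 counts in every library none was lower in either culture. The lower gene was TCF4, which encodes an E-protein, with log2 fold changes of -2.10 (adjusted p = 0.000376) and -1.41 (adjusted p = 0.00257). Their medians were 0.26 and 0.35, and in spheres 5 were called higher without shCtrl replicate 1. Of 12 mesenchymal genes, 7 were tested in each culture, with 4 higher and 2 lower in adherent cells and 3 of each in spheres. The medians of these genes were 0.26 in adherent cells and -0.34 in spheres. S100A4 rose most in adherent cells (1.95, adjusted p = 3.19e-05) and FN1, the gene of fibronectin, in spheres (2.29, adjusted p = 4.34e-10), whereas the collagen gene COL1A2 fell in both (-3.14, adjusted p = 0.00017 and -4.06, adjusted p = 2.16e-05). The sphere value of COL1A2 rests on 4, 1 and 0 counts in shSigma and was -5.54 without shSigma replicate 1. The count of lower mesenchymal genes in adherent cells was 1 whichever shSigma replicate was left out, and 1 without shCtrl replicate 2 or 3 or with the block.

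Genes of the adherens junction around E-cadherin moved in both directions. Of 10 such genes 9 were tested, with 3 higher and 2 lower in adherent cells and 1 higher and 3 lower in spheres, and medians of 0.24 and 0.02, beside the same shares over all genes (22.3% and 27.7%, then 30.2% and 30.9%). In adherent cells the count of higher genes was 1 with the replicate block or DESeq2 and 5 in 1 fit of all 12 libraries, and 1 gene was lower with the block. CDH3 was the lowest in both cultures: it fell from 57.2 ± 6.21 to 32.9 ± 2.56 CPM in adherent cells (log2 -0.86, adjusted p = 0.000455) and from 653 ± 16.7 to 53.9 ± 10.2 CPM in spheres (-3.60, adjusted p = 1.35e-08). VCL, the gene of vinculin, was the highest, at 0.46 (adjusted p = 0.000482) and 0.60 (adjusted p = 4.31e-06). Without shSigma replicate 1 or 2 or shCtrl replicate 1 or 2, 1 gene was lower in adherent cells, and in spheres 2 were higher without shSigma replicate 1 and 3 without shCtrl replicate 1.

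Other genes of the epithelial programme, 32 junction, polarity, protease and keratin genes, were split in adherent cells and mostly lower in spheres. In adherent cells 10 of 28 tested were higher and 12 lower (median -0.02), and in spheres 6 of 30 were higher and 21 lower (median -0.89). Over all genes tested, 22.3% were called higher and 27.7% lower in adherent cells, and 30.2% and 30.9% in spheres. Sphere culture raised 25 of 30 in control cells and lowered 1 (2 without adherent shCtrl replicate 1), and the interaction was called lower for 23 and higher for 1. The shares over all genes were 27.4% higher and 26.3% lower for that culture contrast, and 15.6% lower and 12.7% higher for the interaction. The genes at the ends were AP1M2, an epithelial sorting adaptor (-5.00 in adherent cells, adjusted p = 0.000183, on 0, 1 and 5 counts in shSigma, and -6.75 without shSigma replicate 3 or -4.36 without replicate 1), and LAD1, a basement membrane anchor protein (-5.76 in spheres, adjusted p = 8.54e-10). CLDN4, a tight junction claudin, was the highest of these genes in adherent cells (3.69, adjusted p = 8.11e-06).

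**Figure D4:**
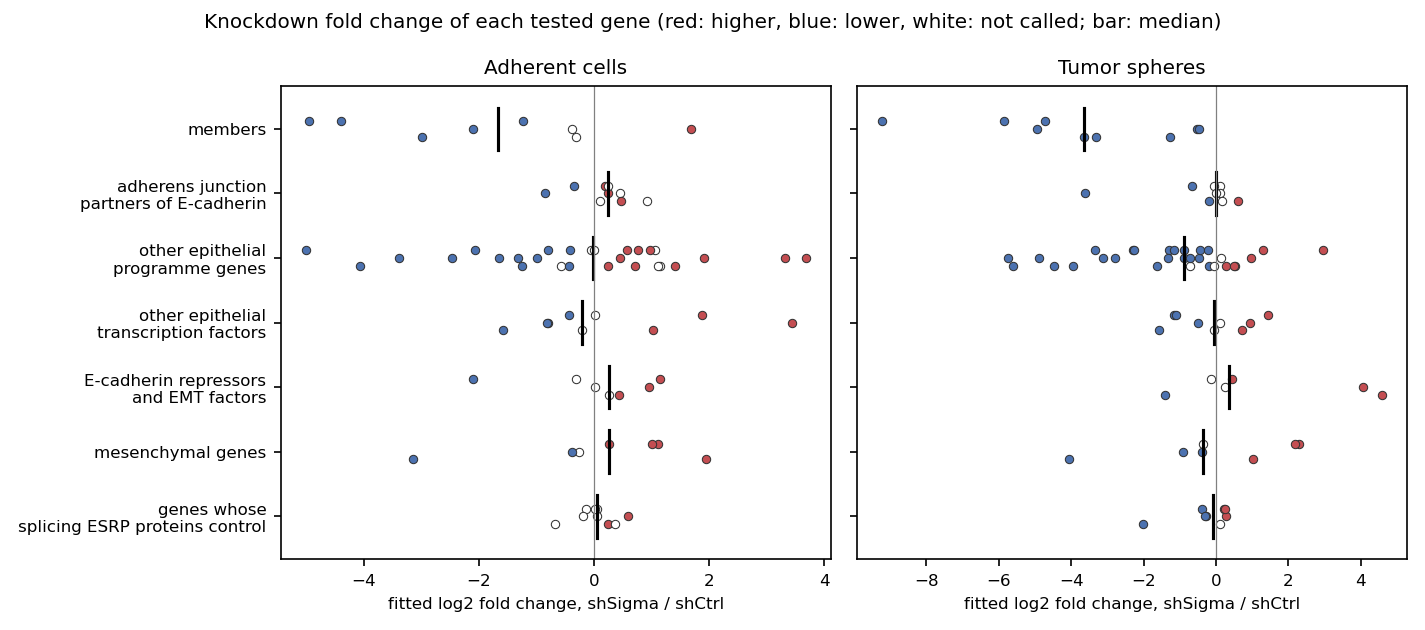
Log2 fold change of the knockdown for every tested gene of each list, in adherent cells and in tumor spheres. Red points were called higher in shSigma cells, blue points lower and white points neither, and bars are medians. The tested members lie to the left of 0 except ELF3 in adherent cells, and the epithelial programme genes spread to both sides.

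Of 12 other epithelial transcription factors 9 were tested in each culture, and in each 3 were higher and 4 lower (medians -0.21 and -0.07), beside 22.3% and 27.7% of all genes in adherent cells and 30.2% and 30.9% in spheres. TFCP2L1, a relative of the Grainyhead factors, was the lowest called in both (-1.58, adjusted p = 9.87e-05 and -1.57, adjusted p = 2.4e-06). At the other end, SPDEF, a prostate ETS factor, rose in adherent cells from 1, 1 and 5 counts to 20, 31 and 17 (3.45, adjusted p = 0.00186, and 4.53 without shCtrl replicate 3), and PITX1 rose in spheres (1.43, adjusted p = 0.000306). Among 10 genes whose transcripts ESRP proteins splice, 2 of 9 tested were higher in adherent cells (1 without shSigma replicate 3 or shCtrl replicate 2 or 3, with DESeq2 and with the replicate block) and none was lower, and in spheres 3 of 8 were higher and 4 lower. FGFR2 was called lower in adherent cells without shSigma replicate 3 (-0.83, adjusted p = 0.0429) and in 1 fit of all 12 libraries (-0.61, adjusted p = 0.0444). CD44 was the highest in both (0.59, adjusted p = 0.000706 and 0.27, adjusted p = 0.000773) and FGFR2 the lowest in spheres (-2.00, adjusted p = 7.26e-07). Counts per gene do not show splice forms, so the isoform switch that ESRP1 governs was not measured here.

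The 5 genes whose log2 CPM over the 12 libraries was most like that of CDH1, out of 10798 genes with a mean of at least 5 CPM, were its neighbour CDH3 (r = 0.9957), MLLT11 (0.9949), ICA1L (0.9934), SLC7A2 (0.9894) and S100A2 (0.9874). These r values describe 4 groups of libraries that share hairpin and culture and carry no test. Each of the 5 was highest in control spheres and lowest in adherent shSigma cells: MLLT11 had means of 52.2 and 9.42 CPM there, and SLC7A2 188 and 7.72 CPM. The ratio of CDH1 to CDH3 per kilobase still differed between groups, at 1.12 to 1.23 in control spheres and 0.313 to 0.587 elsewhere.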

How the data were processed

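RNA was sequenced from 12 DU145 libraries (800 ng of total RNA, directional kit, 75 nt single-end reads). The authors aligned reads with STAR (2.6.1c per the submitters' processing notes) to GRCh38.p12 and deposited raw counts per gene. The annotation, the use of strand and the handling of multiply aligned reads are not given in the sources used here. Labels gave groups and replicate numbers, and the study's methods call the libraries biological replicates.

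From the deposited counts, TMM-scaled CPM and tests were computed with edgeR 4.0.16 in R 4.3.3 (robust quasi-likelihood, two-sided, filterByExpr at a minimum count of 10, Benjamini-Hochberg over all genes tested), with each pair of groups fitted alone and the interaction fitted over all 12 libraries. The SE is the fold change over the root of F, and the prior count was 0.125. Ratios of low counts have exact 95% intervals that cover counting error only. Symbols came from GENCODE 44 (26153 of 28747 identifiers), and levels per kilobase used its exon unions. Members and lists were chosen with earlier results of these data known. The text names all members, the extremes called in each list, the 5 genes most like CDH1, and ZEB1 and VIM. Some genes, the one targeted by the knockdown hairpin among them, are not reported here. Alternatives were DESeq2 1.42.0, its size factors, other count filters, a joint fit, a replicate block and leaving out each library. The fits were tested on simulated counts.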

Additional observations from a re-analysis of the deposited data

Results flagged for a closer look

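The knockdown effect differed between spheres and adherent cells (interaction term of edgeR's quasi-likelihood test, adjusted p under 0.05) for 7 of the 9 members tested. All 7 were called lower, where 15.6% of 14175 genes were called lower and 12.7% higher. Given as the sphere minus the adherent log2 fold change, the differences were -3.55 for CDH1, -0.3826 for EPCAM, -1.028 for GRHL1, -4.929 for GRHL2, -1.609 for OVOL2, -0.9799 for ESRP1 and -2.274 for ELF3. The call of EPCAM was lost in 10 of the 12 fits that left out 1 library, and the size for GRHL2 rests on 3 counts in each shSigma group. ELF3 is the member whose called effects had opposite signs in the 2 cultures.

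Among the other named genes the difference was positive for ZEB1 (3.571), ZEB2 (3.389), VIM (1.866) and FN1 (1.23). It was negative for CDH3 (-2.805), CLDN4 (-2.785), SPDEF (-2.548), LAD1 (-2.433), FGFR2 (-1.387), S100A4 (-0.987) and CD44 (-0.3781). The call of CD44 was lost without adherent shCtrl replicate 2 (adjusted p = 0.0561) or 3 (adjusted p = 0.0583), and without any 1 of sphere shSigma replicates 1 and 3 and sphere shCtrl replicates 1 and 2, with adjusted p up to 0.0751.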

How the results depend on the processing

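No called fold change of a member changed sign. Of 300 member values with 1 library left out, 283 kept direction and call, 11 lost the call (10 of EPCAM's interaction, 1 of OVOL2's), 3 gained it and 3 that were not called changed sign, and of 228 under the other 6 alternatives 225 kept both. The 3 others were EPCAM's interaction with DESeq2 (-0.34, adjusted p = 0.07), with no filter on low counts (-0.30, adjusted p = 0.086) and with at least 10 counts in every library (-0.32, adjusted p = 0.0615). That filter reduced the members called for the interaction from 7 to 4: GRHL2 and OVOL2 were not tested, and EPCAM lost its call. Members that a filter left untested are not among the 228. Over the 6 alternatives the members called for the knockdown ran from 4 to 6 in adherent cells and from 6 to 10 in spheres. The 3 sign changes were in ESRP1 (-0.02466 to 0.3128) and ESRP2 (-0.07057 to 0.1595) for culture in shSigma cells and in ESRP2's interaction (-0.2802 to 0.05023). With 1 library left out, the members called ranged from 6 to 7 in adherent cells and from 5 to 7 for the interaction. Group mean CPM moved by at most 2.91% under another scaling.

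The replicate numbers showed no pairing that held for every library: correlations of same-numbered libraries ran from -0.917 to 0.55, and in no comparison did every library correlate best with its own number. With 3 libraries per group, deviations from the group means cannot exclude a pairing. With the replicate block, 4874 genes (main 6886) were called in adherent cells and 8166 (main 8414) in spheres, and the members called were again 6 and 9. For named genes, the block took the adherent calls of ZEB1 (adjusted p = 0.0522), VIM (adjusted p = 0.103) and PITX1 (adjusted p = 0.0988). Members at 3 counts or fewer per group (GRHL2, OVOL1 and EHF in several groups) limit what these depths can show.

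Among other named genes, sign changes touched differences that were not called. With 1 library left out, the culture effect in shCtrl cells ran from -0.3505 to 0.003738 for COL1A2 and from -0.1548 to 0.09479 for TFCP2L1. That in shSigma cells ran from -0.08492 to 0.4856 for PITX1, from -0.2034 to 0.3317 for SPDEF, from -0.07726 to 0.07853 for TFCP2L1 and from -0.1354 to 0.04069 for ZEB1, and TFCP2L1's interaction from -0.0933 to 0.1383. With DESeq2, its size factors and no filter, TFCP2L1 was -0.007544, -0.005497 and -0.003963 in shCtrl cells (main 0.01234) and 0.001214, 0.001912 and 0.002157 in shSigma cells (main -0.007371). SPDEF in shSigma cells (main -0.006225) was 0.003336 with those size factors, 0.002116 with no filter and 0.0003709 with the replicate block. TFCP2L1's interaction (main -0.04314) was 0.03435 with no filter and 0.01661 with at least 10 counts in every library.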
